A study of Mus musculus with 14 samples.

Results

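The aquaporin genes Aqp3, Aqp1, Aqp9 and Aqp7 were followed across mouse peritoneal macrophages treated with the cytokine interleukin-4, with the irritant thioglycollate, or with both. These 4 genes were taken from the 20660 genes named on the array and were chosen by their measured values, namely the large rise of Aqp3 and Aqp1 after interleukin-4 in resident cells. Values in that contrast are therefore a description and carry no test. Each gene had 1 probe, and each passed the filter on dim probes, which left 20342 genes for the tests. Aqp3 and Aqp7 were well above the local background on all 14 arrays, and Aqp1 and Aqp9 on 11 arrays each.

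The cells were sorted from the peritoneal cavity of C57BL/6 mice as positive for both CD11b and F4/80, and their total RNA was hybridised to 14 one-colour Agilent arrays. The THIO+IL-4C group (n = 4) received 2 ml of 4% thioglycollate together with IL-4C, a complex of 5 µg of interleukin-4 and 25 µg of its antibody 11B11 that prolongs the cytokine's action. The THIO group (n = 3) received the thioglycollate alone, the IL-4C group (n = 4) the complex alone, and the PBS group (n = 3) the saline vehicle, all by intraperitoneal injection. The labels describe the cells as inflammatory monocyte-derived macrophages in THIO+IL-4C, monocytes in THIO, proliferating tissue macrophages in IL-4C and resident macrophages in PBS. Below, cells of both groups given thioglycollate are called elicited and those of the other groups resident. No age, interval between injection and harvest, or source of each replicate is given in the labels, so the p-values measure the spread between these arrays, which may be technical.

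Aquaporins are membrane channels through which water follows osmotic gradients. Aqp1 carries mainly water, whereas Aqp3, Aqp7 and Aqp9 are aquaglyceroporins that also pass glycerol. Aqp3 is further known to pass hydrogen peroxide and Aqp9 to pass urea, and aquaporin-dependent water flow has been tied to macrophage swelling, migration and phagocytosis.

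The promoters of the members that moved most are shown because their patterns differed. Aqp3 and Aqp1 were high in both groups that received IL-4C, whereas Aqp9 was at background in THIO and overlapped between IL-4C and PBS. In the GRCm38.p6 build, Aqp3 lies on chromosome 4 from base 41092724 to 41098183 and Aqp7 beside it from 41033074 to 41048237, with 44486 bases between them. Aqp1 lies on chromosome 6 from 55336299 to 55348555 and Aqp9 on chromosome 9 from 71110659 to 71167849. Each line holds the 250 bases before an annotated start, 5′ to 3′, from the RefSeq promoter table, which had windows for all 4 members. Capitals mark TATAAA, the TATA box core, and GGGCGG, the GC box core, on either strand. The Aqp3 window is chr4:41098184-41098433 (minus strand), the Aqp1 window chr6:55336049-55336298 (plus strand), and the windows of 2 Aqp9 starts are chr9:71163290-71163539 and chr9:71162634-71162883 (minus strand).
Aqp3: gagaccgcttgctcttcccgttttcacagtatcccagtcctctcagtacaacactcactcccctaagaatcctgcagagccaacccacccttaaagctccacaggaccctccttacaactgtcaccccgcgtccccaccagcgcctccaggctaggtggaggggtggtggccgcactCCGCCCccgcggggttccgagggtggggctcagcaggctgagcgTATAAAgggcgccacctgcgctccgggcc
Aqp1: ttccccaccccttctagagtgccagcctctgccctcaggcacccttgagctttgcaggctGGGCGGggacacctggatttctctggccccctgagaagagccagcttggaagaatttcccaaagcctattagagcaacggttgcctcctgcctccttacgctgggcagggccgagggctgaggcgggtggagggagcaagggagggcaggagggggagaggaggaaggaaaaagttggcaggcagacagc
Aqp9 start A: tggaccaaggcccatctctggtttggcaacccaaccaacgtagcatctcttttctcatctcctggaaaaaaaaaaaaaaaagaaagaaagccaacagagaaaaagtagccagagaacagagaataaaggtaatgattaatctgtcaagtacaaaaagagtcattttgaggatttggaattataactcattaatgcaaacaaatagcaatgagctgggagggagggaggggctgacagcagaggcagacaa
Aqp9 start B: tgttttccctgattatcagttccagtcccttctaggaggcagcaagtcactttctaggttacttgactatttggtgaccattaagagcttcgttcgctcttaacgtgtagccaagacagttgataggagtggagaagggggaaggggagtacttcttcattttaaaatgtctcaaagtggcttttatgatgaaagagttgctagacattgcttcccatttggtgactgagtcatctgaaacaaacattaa

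The Aqp3 window held TATAAA at position -29 from the start and a GC box core at -73, read on the other strand, and the Aqp1 window held a GC box core at -190. The Aqp9 windows held neither and were less GC-rich, at 40.4% and 41.6% GC, against 64.0% for Aqp3, 62.0% for Aqp1 and a median of 52.4% over 32851 windows of the same length. Over those windows, TATAAA occurred in 12.4% and GGGCGG in 32.7%. None of the 6 member windows held TTC and GAA with 4 bases between them, the spacing preferred by the interleukin-4 effector STAT6, which 5.85% of windows held. None held TTC and GAA with 3 bases between them, the spacing of other STAT proteins, in 7.02% of windows, or AGGTCA repeated after 1 base, the element of PPAR and RXR dimers, in 0.0335%. Both strands were searched, and the matches shown do not overlap.

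The arrays lay on 2 slides. Slide 1 held the IL-4C and PBS arrays and replicate 1 of THIO, and slide 2 the THIO+IL-4C arrays and replicates 2 and 3 of THIO. The 75th percentile of the processed signal ranged from 1275 to 3883 and the share of spots well above background from 79.4% to 95.8%, and the PBS arrays were the dimmest by both measures. THIO replicate 1 stood apart from its group, with a Pearson correlation over all genes of 0.849 and 0.866 with the other THIO arrays, against 0.918 to 0.931 with the PBS arrays. The sort markers Itgam, which encodes CD11b, and Adgre1, which encodes F4/80, were well above background on every array, and both were lower in THIO than in PBS (-1.81 log2 each, adjusted p at most 1.9e-07, limma).

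All levels below are log2 signals relative to the 75th percentile of the same array, so that 0 is a probe at that percentile. Levels of different probes are not comparable with each other, and every fold refers to 1 probe. The cells were measured in bulk, so fewer cells of a type and less RNA per cell cannot be told apart.

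Aqp3, Aqp1 and Aqp9 rose with IL-4C in thioglycollate-elicited macrophages, while Aqp7 did not pass the test. The difference between THIO+IL-4C and THIO holds none of the arrays on which the genes were chosen, but the fit takes its spread from all 14 arrays, those included. Fitted on the 7 arrays of these groups alone, the adjusted p in limma was 3e-04 for Aqp3, 0.013 for Aqp1 and 6.9e-05 for Aqp9. Of the 4 genes, 3 were called higher and none lower at an adjusted p under 0.05 in limma, where 39.4% of the 20342 genes were called, 16.2% higher and 23.1% lower.

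Aqp3, a glycerol, water and hydrogen peroxide channel, had levels of 3.73, 3.49, 3.73 and 2.92 on the THIO+IL-4C arrays, against -0.68, -0.45 and -1.36 on the THIO arrays. Every THIO+IL-4C array lay above every THIO array by more than the range within either group. The difference was 4.3 log2 (SE 0.31), or 19.7-fold, with an adjusted p of 7.5e-07 in limma, and it was 4.37 without THIO replicate 1, which is also the difference within slide 2 (adjusted p = 4.2e-06).

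Aqp1, the water channel of red cells and endothelium, had levels of -0.31, -0.87, -0.66 and 1.59 on the THIO+IL-4C arrays, against -4.60, -2.99 and -3.03 on the THIO arrays. The groups did not overlap, and replicate 4 of THIO+IL-4C was the highest and THIO replicate 1 the lowest. The difference was 3.48 log2 (SE 0.55), or 11.1-fold, with an adjusted p of 0.00031 in limma. Without THIO replicate 1, and so within slide 2, it was 2.95 (adjusted p = 0.0012), and in the authors' deposited table, refitted, it was 2.78.

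Aqp9, a channel for glycerol, urea and other small solutes, had levels of -1.75, -1.66, -1.98 and -2.29 on the THIO+IL-4C arrays and was not well above background on any of the 3 THIO arrays, where its signal was -8.18, -7.74 and -8.37. The groups were fully separated. Because the THIO level is only a bound, Aqp9 was at least 16.8-fold higher in THIO+IL-4C on the processed signal, taking for each THIO array the lowest signal that was well above background there, or the probe's own signal if higher. The fitted difference of 6.18 log2 (SE 0.19, adjusted p = 2.1e-09, limma) is no estimate of the fold, and within slide 2 it was 6.14 (adjusted p = 1.6e-08). The size depends on how background is treated, and values below that bound came from the alternatives: 3.34 log2 after normexp correction, 3.04 with quantile scaling added, and 2.52 in the authors' deposited table, refitted.

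Aqp7, an aquaglyceroporin best known from adipocytes, had levels of 0.50, 0.32, 0.30 and 0.38 on the THIO+IL-4C arrays, against -1.76, 0.24 and 0.41 on the THIO arrays. THIO replicate 1 was low, and replicates 2 and 3 lay within or beside the range of THIO+IL-4C. The difference was 0.75 log2 (SE 0.46, adjusted p = 0.22, limma), and within slide 2 it was 0.05 (SE 0.30, adjusted p = 0.93).

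**Figure D1:**
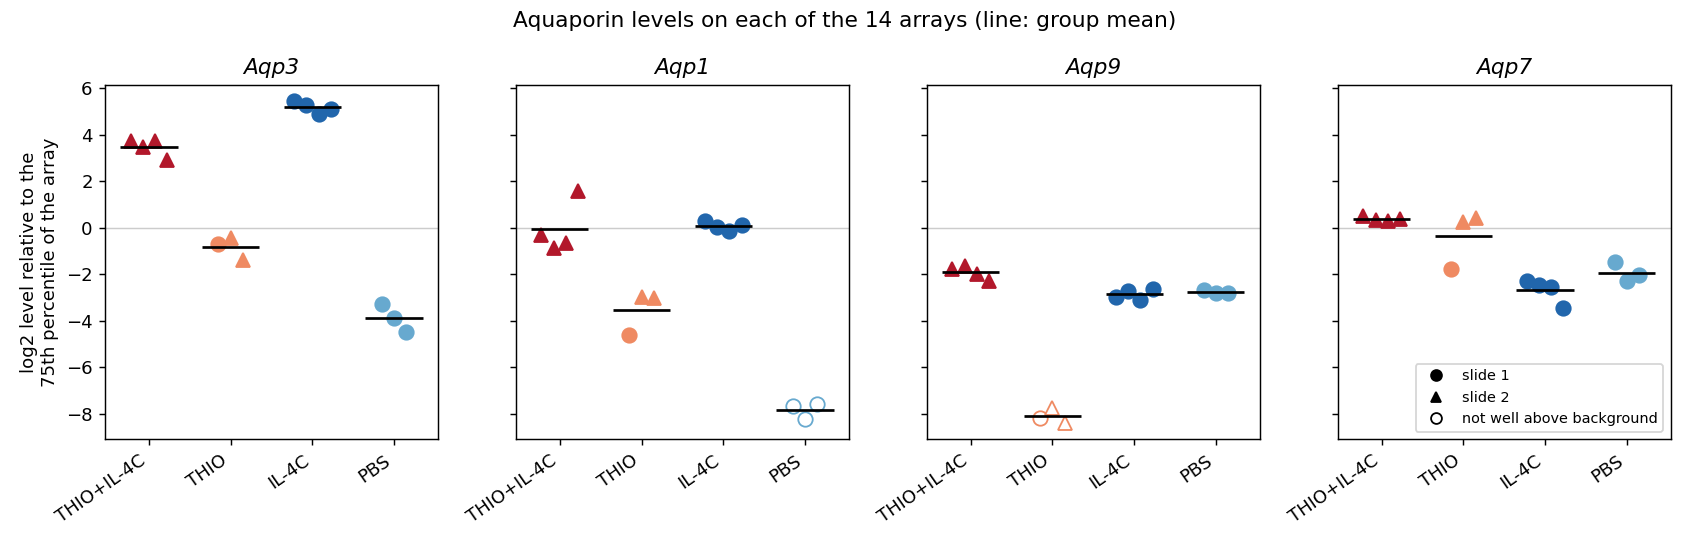
Log2 level of each aquaporin gene relative to the 75th percentile of the array (vertical axis) on each of the 14 arrays, by group. Points are arrays, horizontal lines group means, circles slide 1 and triangles slide 2, and open symbols are signals not well above background. Aqp3 and Aqp1 are high in both groups that received IL-4C, Aqp9 is at background on the 3 THIO arrays, and for Aqp7 THIO replicate 1 (slide 1) lies 2.09 log2 below the mean of the other THIO arrays.

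In resident cells the response to IL-4C differed between the members: Aqp3 and Aqp1, the genes the choice rested on, were far higher, and Aqp7 and Aqp9 were not. Aqp3 had levels of 5.45, 5.30, 4.88 and 5.09 on the IL-4C arrays, against -3.26, -3.89 and -4.50 on the PBS arrays, a difference of 9.06 log2 (SE 0.31) or 535-fold on the processed signal, and of 8.18 to 8.26 log2 under both normexp settings and in the authors' deposited table. Aqp1 had levels of 0.30, 0.02, -0.14 and 0.11 on the IL-4C arrays, against background-level signals of -7.66, -8.20 and -7.57 on all 3 PBS arrays. For both genes the IL-4C arrays lay close together and far above PBS.

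Taking PBS at the same kind of bound, the rise of Aqp1 with IL-4C was at least 47.1-fold on the processed signal. Smaller values came from the alternatives, at 4.59 log2 after normexp correction, 4.97 with quantile scaling added and 3.97 in the authors' deposited table. Aqp9 had levels of -2.96, -2.70, -3.10 and -2.62 on the IL-4C arrays, against -2.68, -2.80 and -2.81 on the PBS arrays. These ranges overlapped, and the difference was -0.08 log2 (SE 0.19). Aqp7 had levels of -2.28, -2.47, -2.52 and -3.44 on the IL-4C arrays, against -1.47, -2.28 and -2.01 on the PBS arrays, a difference of -0.76 log2 (SE 0.46) with ranges that overlapped slightly. In this comparison 32.2% of all genes were called in either direction.

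Set beside each other, the IL-4C difference in elicited cells and that in resident cells ran apart for the members. The elicited minus the resident difference was -4.76 log2 for Aqp3 (SE 0.44), -4.4 for Aqp1 (SE 0.77), 6.26 for Aqp9 (SE 0.27) and 1.5 for Aqp7 (SE 0.65). These values contain the contrast on which the genes were chosen and are not tested, and those of Aqp1 and Aqp9 rest on signals at background.

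Thioglycollate without IL-4C went with higher Aqp3 and Aqp1 and with Aqp9 no longer above background. The comparison of THIO with PBS shares the PBS arrays with the contrast used for the choice. Of the 4 genes 3 were called higher and 1 lower in limma, where 44.5% of all genes were called, 20.2% higher and 24.3% lower. For Aqp3 the levels given above did not overlap, and the difference of 3.05 log2 (SE 0.33, 8.29-fold, adjusted p = 2.1e-05) was 3.20 within slide 1, where THIO had 1 array, 2.34 after normexp correction and 2.11 in the authors' deposited table.

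Aqp1 was at least 3.85-fold higher in THIO than in PBS on the processed signal, with an adjusted p of 0.00013 for the fitted difference of 4.27 log2. After normexp background correction the difference was 1.42 log2, and in the authors' deposited table it was 0.74 log2 with an adjusted p of 0.20 when refitted with limma. Aqp9 was at least 9.34-fold lower in THIO on the processed signal (adjusted p = 4.6e-09), whereas the difference was -2.74 log2 after normexp correction, -2.57 with quantile scaling added and -2.11 in the authors' deposited table. Its signal was at background on THIO replicate 1 as on the other THIO arrays.

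The Aqp7 call in THIO minus PBS rested on the arrays of slide 2. The difference was 1.55 log2 (SE 0.49, adjusted p = 0.026, limma), but THIO replicate 1 lay 0.16 log2 from the PBS mean, and with the slide as a block the difference was 0.16 (adjusted p = 0.82). The call was also lost without PBS replicate 2 or 3 or THIO replicate 2 or 3, with differences of 1.16 to 1.51 log2 and adjusted p of 0.067 to 0.11, and without THIO replicate 1 it was 2.24 log2 (adjusted p = 9.7e-05).

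With IL-4C in both groups, elicited cells had less Aqp3 than resident cells, and Aqp1 did not pass the test. The comparison of THIO+IL-4C with IL-4C lies wholly between slides and shares the IL-4C arrays on which Aqp3 and Aqp1 were chosen for being high, so a lower value in THIO+IL-4C is favoured by that choice. In it 2 genes were called higher and 1 lower where 70.1% of all genes were called, 27.9% higher and 42.2% lower. Aqp3 was lower by 1.71 log2 (SE 0.29, 3.28-fold, adjusted p = 0.00031, limma) with no overlap of the levels given above, and Aqp1 differed by -0.13 (SE 0.51, adjusted p = 0.83) with overlapping levels. Aqp7 was higher by 3.05 log2 (SE 0.43, adjusted p = 8.5e-05) and Aqp9 by 0.93 log2 (SE 0.18, 1.90-fold, adjusted p = 0.00065).

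The slide could be separated from the group only through THIO replicate 1, and with the slide as a block none of these 3 calls remained: Aqp3 was at -1.49 (adjusted p = 0.091), Aqp7 at 0.97 (0.18) and Aqp9 at 0.80 (0.12). Aqp1 was then at -1.72 (SE 0.89, adjusted p = 0.19, limma). The order of the group means for Aqp3 was IL-4C, THIO+IL-4C, THIO and PBS, with no overlap between neighbours. For Aqp1 the levels of THIO+IL-4C and IL-4C overlapped and lay above those of THIO, with PBS at background. For Aqp9 THIO+IL-4C came first, PBS and IL-4C overlapped, and THIO was at background.

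**Figure D2:**
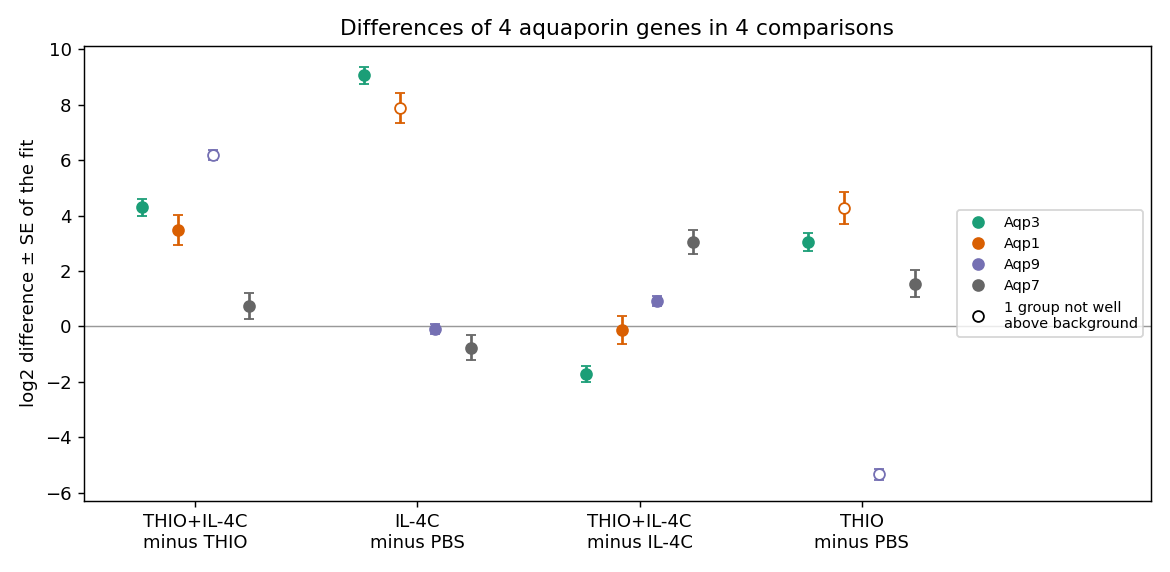
Log2 difference (vertical axis) with the standard error of the limma fit for each gene in 4 comparisons. Open symbols mark differences in which 1 group was not well above background, so that the fitted value is no estimate of the fold. Aqp3 and Aqp1 lie above 0 in both IL-4C comparisons, and Aqp9 is at 6.18 in elicited and -0.08 in resident cells.

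Of the other 8 aquaporin genes, none passed the test for IL-4C in elicited cells on its brightest probe, the only 1 tested. The second probe of Aqp11, which was not tested, averaged -3.88 in THIO+IL-4C and -2.72 in THIO. Its levels did not overlap between these groups, and the difference was -1.16 log2, against -0.74 on the tested probe. In THIO+IL-4C minus THIO, 0 of 8 were called in limma, 0 had an unadjusted p under 0.05 (the lowest was 0.0573), and 0 were called with the slide as a block. In IL-4C minus PBS, Mip, the lens channel also known as Aqp0, was the 1 gene called: it averaged -0.78 ± 0.19 in IL-4C (SD, n = 4) and -2.38 ± 0.09 in PBS (SD, n = 3), a rise of 1.60 log2 (SE 0.36, adjusted p = 0.0043) where 16.9% of all genes were called higher and 15.3% lower.

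In THIO minus PBS, Aqp4 and Aqp6 were called higher and Aqp11 lower, and in THIO+IL-4C minus IL-4C 4 were called higher and 3 lower, beside 44.5% and 70.1% of all genes called. With the slide as a block the counts were 0 higher and 1 lower, which was Aqp12, in THIO minus PBS, and 0 in either direction in THIO+IL-4C minus IL-4C. For 7 of these 8 genes, all but Aqp12, THIO replicate 1 on slide 1 lay nearer the PBS mean than the mean of the THIO arrays on slide 2, as it did for Aqp7. For Aqp3, Aqp1 and Aqp9 it lay nearer the other THIO arrays. Some of these genes had 2 probes that went opposite ways: in THIO minus PBS the differences were 2.56 and -0.22 log2 for Aqp4 and -1.04 and 0.57 for Aqp11, and in THIO+IL-4C minus THIO they were 1.22 and -1.09 for Aqp5.

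**Figure D3:**
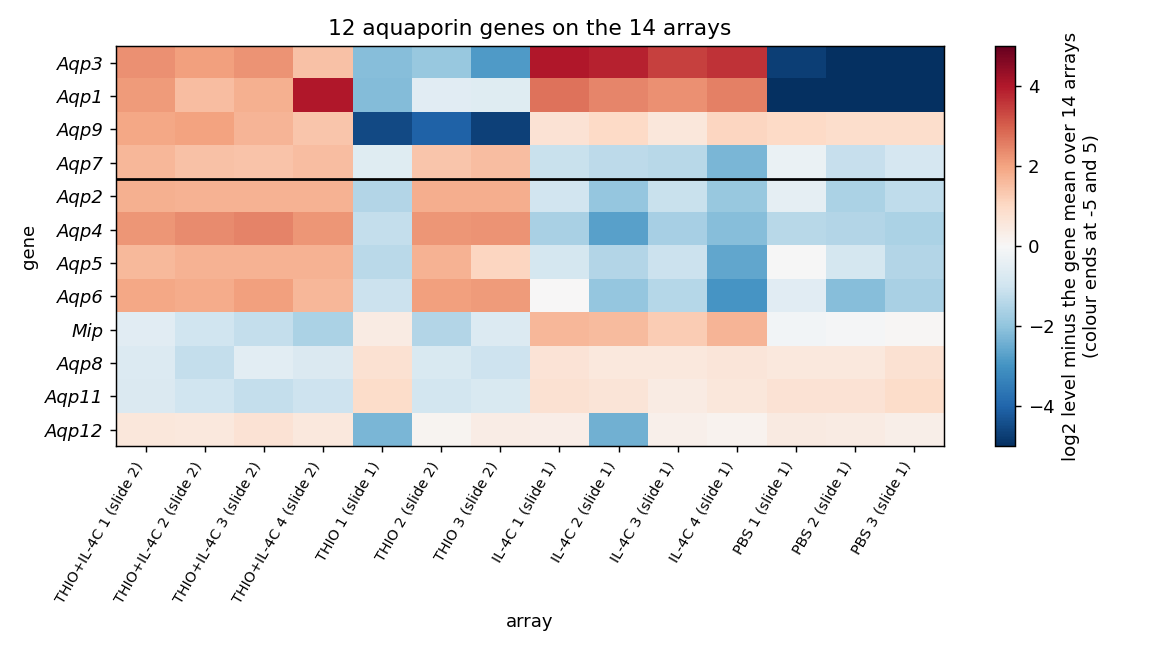
Log2 level minus the mean of the gene over 14 arrays (colour, ending at -5 and 5) for 12 aquaporin genes (rows, the 4 followed here above the line) on each array (columns, with its slide). Aqp2, Aqp4, Aqp5, Aqp6 and Aqp7 are high on the slide 2 arrays of both groups there and low on THIO replicate 1, whereas Aqp9 is low on all 3 THIO arrays.

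Over the 14 arrays, Aqp1 and Aqp3 had a Pearson correlation of 0.939 with each other, and every other pair of members lay between -0.15 and 0.37. These correlations, and those that follow, are descriptions over arrays that share groups and slides. Those of Aqp1 also rest in part on its background-level signals in PBS, and those of Aqp9 on its background-level signals in THIO. Among 18815 genes with clone and predicted names left out, those most like Aqp3 were Ino80c (0.986), Csl, Chchd10, Aars and Ndc1. Those most like Aqp1 were Chil3 (0.975), the chitinase-like protein of alternatively activated macrophages, Cgref1, Pfkfb4, Nme1 and Ghitm. For Aqp9 they were Snhg1 (0.993), Irf4 (0.990), a transcription factor of the interleukin-4 response, Retnla (0.983), Fbl and Hnrnpa1.

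Those most like Aqp7 were Gucy2d (0.995), Magi2, Fbxw13, Acsbg2 and Tssk4. Retnla, a secreted resistin-like protein, averaged 7.58 in THIO+IL-4C, 3.55 in THIO, 7.46 in IL-4C and 6.91 in PBS, with THIO lowest, as for Aqp9. Chil3 averaged 7.38 in THIO+IL-4C, 4.22 in THIO, 7.25 in IL-4C and 1.22 in PBS, which sets PBS lowest as Aqp1 does.

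The nearest named gene on the upstream side of Aqp9 rose with IL-4C in elicited cells, and no measured gene around Aqp3 was called higher there. Over all genes 16.2% were called higher and 23.1% lower in THIO+IL-4C minus THIO, and the counts of neighbours below are to be read beside these shares. This gene is Aldh1a2, a retinaldehyde dehydrogenase. It lies 47939 bases from Aqp9 toward higher coordinates, which is upstream because Aqp9 is on the minus strand. Aldh1a2 averaged 4.29 ± 0.10 in THIO+IL-4C (SD, n = 4) and -0.13 ± 0.09 in THIO (SD, n = 3), a rise of 4.42 log2 (SE 0.11, adjusted p = 4.8e-10, limma). It was 1.91 log2 lower in THIO than in PBS (fitted difference -1.91, adjusted p = 1.9e-07) and 0.69 log2 higher in IL-4C than in PBS (adjusted p = 0.00042). Of the 5 measured neighbours of Aqp9, 2 were called higher and 1 lower in THIO+IL-4C minus THIO, and the other riser was Adam10, a membrane protease, at 1.13 log2 (adjusted p = 6e-05).

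Of the 4 measured neighbours of Aqp3 other than Aqp7, none was called higher and 1, Ubap2, lower in that comparison, with differences of -0.29 to 0.44 log2, and Nol6, a ribosome assembly factor, stood at 0.23 (adjusted p = 0.28). Of the 6 neighbours of Aqp1, 1 was called higher and none lower, with differences of 0.34 to 1.61 log2.

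**Figure D4:**
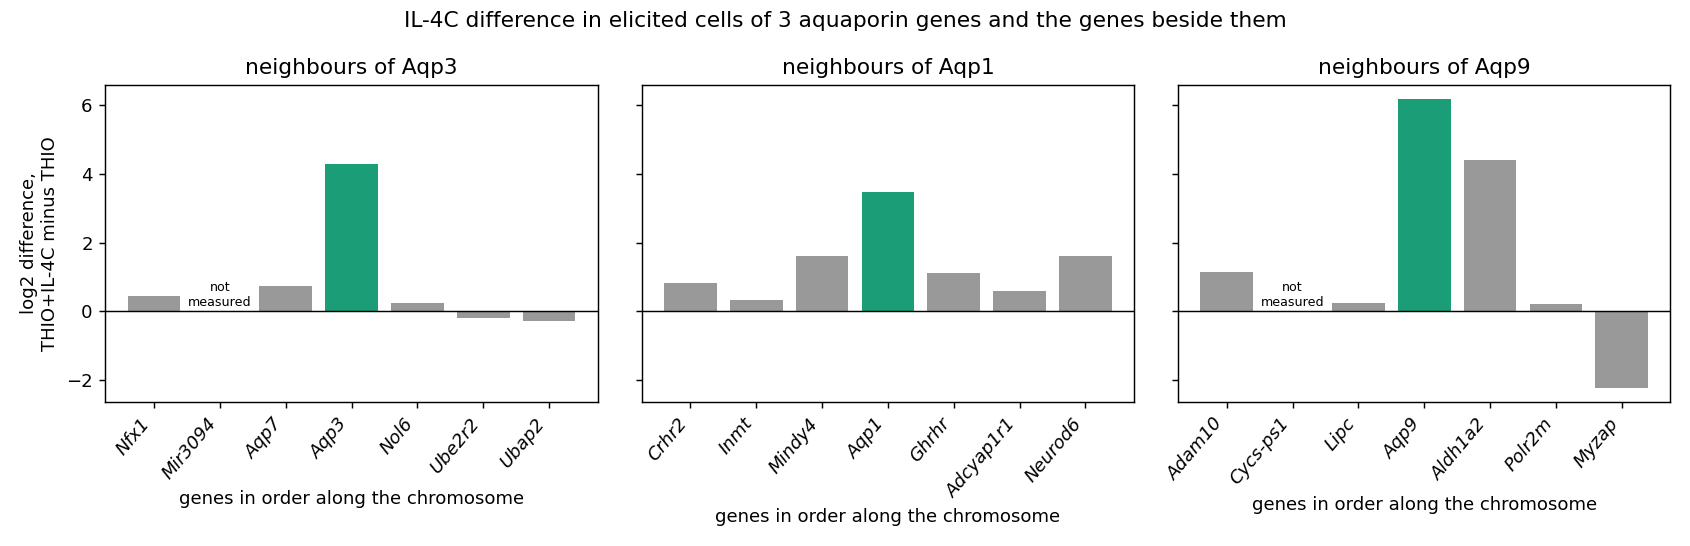
Log2 difference of THIO+IL-4C minus THIO (vertical axis) for Aqp3, Aqp1 and Aqp9 (green bars) and for the 3 named genes on either side of each in chromosome order (grey bars). Aldh1a2 stands at 4.42 beside Aqp9, while the measured genes around Aqp3 stand between -0.29 and 0.75. The Aqp9 bar is fitted against a group at background.

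Genes that take up the glycerol path inside the cell were examined alongside the channels. The list held 10 genes of glycerol phosphorylation and the first acylation steps, all measured. In THIO+IL-4C minus THIO 3 were called higher and none lower, with a median difference of 0.56 log2 against 0.03 over all genes. Over all genes 16.2% were called higher and 23.1% lower there, 16.9% and 15.3% in IL-4C minus PBS, and 20.2% and 24.3% in THIO minus PBS, and the list counts that follow are to be read beside these shares. Gpat3, a glycerol-3-phosphate acyltransferase, averaged 1.12 ± 0.41 in THIO+IL-4C (SD, n = 4) and -1.23 ± 0.11 in THIO (SD, n = 3), a rise of 2.35 log2 (SE 0.24, adjusted p = 1e-05, limma). Gk, glycerol kinase, stood at 0.20 there (adjusted p = 0.47).

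In IL-4C minus PBS 3 of the 10 were higher and 1 lower, with Gpat3 at 3.01 (adjusted p = 1.8e-06) and Gk at 2.49 (adjusted p = 4.1e-06). Gk averaged -0.39 ± 0.08 in IL-4C (SD, n = 4) and -2.88 ± 0.06 in PBS (SD, n = 3). In THIO minus PBS 3 were higher and none lower, among them Gk at 1.69 (adjusted p = 0.00014) and the glycerol-3-phosphate dehydrogenase Gpd1l at 1.35 (adjusted p = 0.014).

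Triglyceride genes, whose breakdown products include glycerol, fell more often than they rose with IL-4C in elicited cells. Of 13, 1 was called higher and 8 lower in THIO+IL-4C minus THIO, with a median of -0.63 log2, where 16.2% of all genes were called higher and 23.1% lower. Pnpla2, the first lipase of triglyceride breakdown, averaged 1.77 ± 0.07 in THIO+IL-4C (SD, n = 4) and 3.74 ± 0.19 in THIO (SD, n = 3), and so fell by 1.96 log2 (adjusted p = 1.4e-07, limma). The lysosomal lipase Lipa fell by 1.87 log2 (adjusted p = 9.5e-05), and G0s2, an inhibitor of Pnpla2, rose by 1.99 log2 (adjusted p = 0.007). In THIO minus PBS 9 were higher and 1 lower, with the droplet protein Hilpda at 3.38 (adjusted p = 8.2e-06). In IL-4C minus PBS 5 were higher and 3 lower, with lipoprotein lipase, Lpl, at -6.92 (adjusted p = 3.4e-09).

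**Figure D5:**
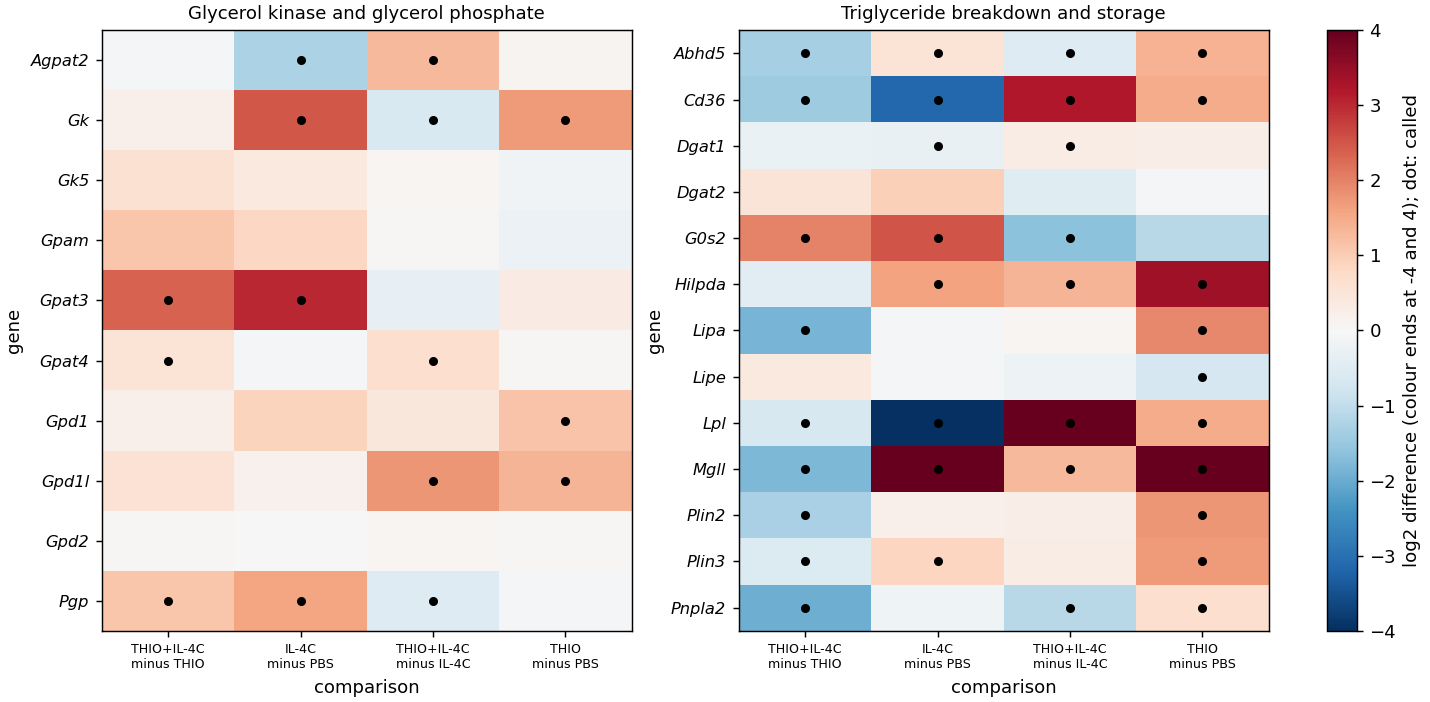
Log2 difference (colour, ending at -4 and 4) of 10 genes of glycerol phosphate handling (left) and 13 of triglyceride breakdown and storage (right) in 4 comparisons (columns), with a dot where the adjusted p is under 0.05. Gpat3 is higher with IL-4C in both cell populations, and 8 of 13 triglyceride genes are lower with IL-4C in elicited cells. Mgll has 4 probes that went opposite ways with IL-4C in elicited cells, and it was not well above background in PBS on the probe drawn.

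Lists for the other solutes of these channels gave mixed counts, beside 16.2% of all genes called higher and 23.1% lower in THIO+IL-4C minus THIO. Of 4 genes of urea and arginase, 2 were higher and none lower in THIO+IL-4C minus THIO, with Arg1, the arginase that makes urea, at 3.65 log2 (SE 0.20, adjusted p = 9.3e-08, limma). In IL-4C minus PBS 1 of the 4, Arg1 at 4.06 (adjusted p = 5.7e-08, limma), was higher and 2 were lower. Of 14 measured genes of hydrogen peroxide production and removal, none was higher and 8 were lower in THIO+IL-4C minus THIO, with Cybb, the catalytic subunit of the phagocyte oxidase, at -2.25 (adjusted p = 8.2e-06). In IL-4C minus PBS 3 were higher and 5 lower, with Cybb at -1.44 (adjusted p = 0.00031). Of 18 genes of cell volume and osmolyte handling, 5 were higher and 10 lower in THIO+IL-4C minus THIO, among them the myo-inositol carrier Slc5a3 at 1.18 (adjusted p = 0.0019), and 5 were higher and 4 lower in IL-4C minus PBS.

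Of 11 transcription factors tied to interleukin-4, lipids or osmotic stress, 3 were higher and 5 lower in THIO+IL-4C minus THIO, beside the same shares. Klf4, a factor of alternative activation, rose by 2.77 log2 (adjusted p = 4.1e-07, limma) there. In IL-4C minus PBS 1 of the 11, Klf4 at 2.89 (adjusted p = 3.7e-07, limma), was higher and 3 were lower. Pparg, the lipid receptor known to act on Aqp7 and Aqp3 in other tissues, fell by 1.67 log2 with IL-4C in elicited cells (adjusted p = 0.00021) and stood at 0.15 (adjusted p = 0.75) in IL-4C minus PBS. Nr1h3, a sterol receptor, fell by 2.92 log2 in elicited cells (adjusted p = 3.2e-09), and the resident cell factor Gata6 stood at 0.70 (adjusted p = 0.15) there and at -5.94 (adjusted p = 3.3e-07) in THIO minus PBS.

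Markers of other cells known for these channels were read beside each gene, as the sum of their linear levels relative to the 75th percentile. The sums add probes whose levels are not comparable, so the brightest probe weighs most. For Aqp1, 2 of 7 measured red cell markers, Alas2 (2.37 log2, adjusted p = 0.043, limma) and Epb42, were higher in THIO+IL-4C than in THIO and none was lower, with sums of 1.69 to 2.21 in THIO+IL-4C and 0.70 to 1.64 in THIO. In IL-4C minus PBS 1 of 7, Hbb-bt, was higher, none was lower and 6 were not called. The sums were 2.37 to 3.98 in IL-4C and 1.04 to 1.57 in PBS, where Epb42 was not well above background on any array. That rise came from the Hbb-bt probe, which averaged 1.19 in IL-4C and -2.28 in PBS. The other haemoglobin genes, Hba-a1 and Hbb-bs, averaged -2.46 and -4.32 in IL-4C and -1.33 and -4.17 in PBS. Endothelial markers went 2 of 9 higher and 3 lower with sums of 10.3 to 12.4 in THIO+IL-4C and 14.7 to 16.9 in THIO. In IL-4C minus PBS 2 of 9 were higher and 0 lower, while the sums overlapped between IL-4C (7.0 to 8.09) and PBS (6.54 to 8.01). The Kdr probe weighed most in those sums, with averages of 2.44 in IL-4C and 2.54 in PBS. In THIO minus PBS 3 endothelial markers were higher and 1 lower, and the sums of THIO lay above those of PBS.

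For Aqp3, epithelial markers went 1 of 8 higher and 1 lower, with sums of 7.0 to 10.5 in THIO+IL-4C and 3.37 to 3.67 in THIO. The 1 higher was Cdh1, which alternatively activated macrophages are also known to express, at 2.85 in THIO+IL-4C and -4.21 in THIO. For Aqp9, neutrophil markers went 2 of 9 higher and none lower, with sums of 51.0 to 58.5 in THIO+IL-4C and 48.4 to 51.4 in THIO. For Aqp7, adipocyte markers went 2 of 7 higher and 1 lower, with sums of 3.17 to 3.47 in THIO+IL-4C and 1.98 to 2.11 in THIO.

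Of the other markers measured in THIO+IL-4C minus THIO, mesothelial and stromal ones went 0 of 9 higher and 3 lower, B cell ones 0 of 7 and 3, T and NK cell ones 0 of 8 and 2, mast cell ones 0 of 6 and 1, eosinophil ones 1 of 7 and 1, and dendritic cell ones 1 of 6 and 1. Of 7 measured sort and macrophage markers none was higher and 2 were lower.

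Other cells' markers also moved in the comparisons with PBS. In IL-4C minus PBS, B cell markers went 0 of 7 higher and 5 lower, with sums of 2.55 to 2.92 in IL-4C and 9.22 to 18.5 in PBS, T and NK cell ones 0 of 8 and 4, mast cell ones 0 of 6 and 3, and mesothelial and stromal ones 0 of 9 and 3. Sort and macrophage markers went 0 of 7 higher and 4 lower, with sums of 326 to 348 in IL-4C and 563 to 652 in PBS. In THIO minus PBS, mesothelial and stromal markers went 6 of 9 higher and none lower, with sums of 2.87 to 4.2 in THIO and 1.31 to 1.46 in PBS, and neutrophil ones 4 of 9 higher and 2 lower. B cell markers went 0 of 7 higher and 5 lower there, mast cell ones 0 of 6 and 5, and sort and macrophage ones 0 of 7 and 5. The part of any of these cells in the aquaporin differences was not tested.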

How the data were processed

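Total RNA of sorted cells was measured on 14 one-colour arrays, and each array came as Agilent Feature Extraction output (version 11.0.1.1 per the file headers, 11.5 per the submitters' processing notes). The processed signal is a background-subtracted intensity made by the authors with that software, per the file headers. The authors' deposited table of log2 values had the same median in every column (9.23), and its normalization and background steps are not given in the sources used here. It was used as an alternative only.

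From the intensities, each array was scaled to the 75th percentile of its processed signal and log2 was taken, outlier spots and control spots were left out, and spots of a probe were averaged. Probes were named through RefSeq accessions (27235 of 55681 probes carried 1 symbol). Probes had to rise well above background on 3 or more arrays, and each gene was represented by its brightest probe. One limma fit (R 4.3.3, limma 3.58.1) with a mean per group over all 14 arrays gave moderated tests with Benjamini-Hochberg adjustment over 20342 genes, called under 0.05, two-sided. The fit was also run on simulated independent values with no slide effect, no outlying array and no background floor. That run therefore does not bear on these features of the data. The spread and number of the arrays limit the precision.

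The members and gene lists were chosen with earlier results of these data known. Beyond the members and other aquaporins, the text names from each list at most 2 called genes per direction and comparison with the largest changes, with others chosen after their values were seen. It also names the 5 genes most correlated with each member and the 3 named genes on either side of it. Alternatives were normexp background correction with an offset of 50, on the median signal since the mean signal was not used here, quantile and median scaling, the authors' table, other filters, the slide and replicate blocks, array weights, and leaving out each array.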

Additional observations from a re-analysis of the deposited data

Results flagged for a closer look

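For 30 genes named in the text other than the 4 members, the IL-4C difference in elicited cells (THIO+IL-4C minus THIO) was tested against that in resident cells (IL-4C minus PBS) as an interaction term in limma, with adjustment over all genes, and 12 differed, with the signed elicited minus resident value above 0 for 4 and below 0 for 8. The sign gives no size of change: Lpl stood at -0.63 in elicited and -6.92 in resident cells, and Nr1h3 at -2.92 and 0.06. Over all 20342 genes, 8244 had an interaction of at least 2-fold in either direction, and the share of all genes called for it is not given here. Many of the 30 were named for large changes or after their values were seen, which favours such differences, so the count of 12 is no result about these genes. The interaction was 6.29 log2 for Lpl (adjusted p = 2.6e-07), 3.73 for Aldh1a2 (7.8e-08), 1.40 for Icam2 (0.0011) and 1.36 for Slc5a3 (0.0088). It was -2.98 log2 for Nr1h3 (1.1e-07), -2.29 for Gk (0.00017), -2.11 for the aquaporin Mip (0.0075), -2.02 for Hilpda (0.0038), -1.84 for Lipa (0.002), -1.81 for Pparg (0.002), -1.78 for Pnpla2 (9.7e-06) and -0.92 for Adgre1 (0.00022).

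Single arrays far from the other 3 of their group were looked for in 68 sets of 4 arrays, and chance marks about 1 in 20. Aqp12 stood at -5.55 on IL-4C replicate 2, against -2.97 to -2.81 on the others, and Adam10 at 4.54 on THIO+IL-4C replicate 4, against 3.95 to 4.00.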

How the results depend on the processing

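Values were recomputed under alternatives for the 4 genes and the counts of calls. Of these, 581 were counted as unchanged, 31 moved, 11 lost a call and 5 changed sign. Unchanged did not mean the same size. Aqp9 in THIO+IL-4C minus THIO was so counted at 2.52, against 6.18, and the calls in IL-4C minus PBS at 9620, against 6548. Many differences could not move, as when an array of a group outside the comparison was left out, or the filter or probe averaging was changed. The 581 are therefore no measure of robustness. The Aqp3, Aqp1 and Aqp9 calls in THIO+IL-4C minus THIO held under every alternative run, though not in size. The depth of the low end limits Aqp1 in PBS and Aqp9 in THIO, which were not above background.

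Background correction moved those values and also the Aqp3 values. Aqp9 was 3.34 in THIO+IL-4C minus THIO and -2.74 in THIO minus PBS under normexp, 3.04 and -2.57 with quantile scaling added, and 2.52 and -2.11 in the authors' table, against 6.18 and -5.33. Normexp with 75th percentile scaling gave 4.59 for Aqp1 and 8.26 for Aqp3 in IL-4C minus PBS, and -1.54 for Aqp1, -4.06 for Aqp3 and 3.58 for Aqp9 in the difference of the IL-4C effects. Normexp with quantile scaling gave 4.97, 8.18, -1.89, -3.83 and 3.07 for the same values. Quantile scaling alone gave -4.30 for Aqp3 and 5.90 for Aqp9 in the difference of effects. The authors' deposited table, refitted, gave 3.97 for Aqp1 and 8.21 for Aqp3 in IL-4C minus PBS, 0.74 for Aqp1 in THIO minus PBS, and -1.19, -4.17 and 2.58 for Aqp1, Aqp3 and Aqp9 in the difference of effects. Scaling to the array median turned Aqp9 in IL-4C minus PBS to 0.0015 and shifted the median of all genes to -0.53 in THIO+IL-4C minus IL-4C, against -0.21.

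With the slide as a block, calls numbered 6017 in THIO minus PBS, against 9052, and 5427 in THIO+IL-4C minus IL-4C, against 14250. Under it Aqp7 was 0.16 in THIO minus PBS, Aqp3, Aqp7 and Aqp9 were -1.49, 0.97 and 0.80 in THIO+IL-4C minus IL-4C, and Aqp7 was 0.81 in the difference of effects. Within slide 1, Aqp1 and Aqp7 were 3.21 and 0.16 in THIO minus PBS, and within slide 2 Aqp7 was 0.05 in THIO+IL-4C minus THIO, differences chosen after seeing the data. Array weights gave 14948 calls in THIO minus PBS, -0.0043 for Aqp7 in THIO+IL-4C minus THIO, and -5.22, -4.34, 0.71 and 6.52 for Aqp1, Aqp3, Aqp7 and Aqp9 in the difference of effects. Fitting the compared groups alone gave 3919 calls in THIO minus PBS and 1.55 for Aqp7 (adjusted p = 0.15, limma).

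Same-numbered replicates did not deviate together (19 pairs, correlations of -0.446 to 0.367, 4 over 0.1), so the numbers do not pair the arrays. With the replicate block, Aqp7 in THIO minus PBS stayed at 1.55 with an adjusted p of 0.05, no other member call changed, and calls numbered 7744 in THIO minus PBS.

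Leaving out each array gave 1.16 to 2.24 for Aqp7 in THIO minus PBS, -0.16 to 0.002 for Aqp9 in IL-4C minus PBS (above 0 without IL-4C replicate 3), -0.68 to 0.14 for Aqp1 in THIO+IL-4C minus IL-4C (0.14 and 0.07 without THIO+IL-4C replicate 2 and 3), 0.81 to 1.89 for Aqp7 in the difference of effects, and 6231 to 13876 calls in THIO minus PBS, the most without THIO replicate 1. The causes were not tested.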
